A study of Mus musculus with 6 samples.

Results

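The nuclear genes for subunits of respiratory complexes II to V were compared between hepatocytes with and without Xbp1. They were taken by gene name from the deposited count table: Sdha to Sdhd for complex II, names starting with Uqcr together with Cyc1 and Cycs for complex III and cytochrome c, names starting with Cox4 to Cox8 for complex IV, and names starting with Atp5 for complex V, leaving out names with -ps. This gave 51 genes of the 54532 in the table, 4 for complex II, 10 for complex III and cytochrome c, 19 for complex IV and 18 for complex V. The 51 rows hold 50 distinct symbols, because Atp5o is listed under a second identifier that had no read. The name rule also takes Cox6c2, a processed pseudogene, and Atp5s, for a coupling factor that is not a subunit of complex V.

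The libraries came from primary hepatocytes of C57BL/6 mice aged 32 to 34 weeks on a high-fat diet, which every animal received for 26 weeks. XCON mice were Xbp1FL/FL, with floxed Xbp1 alleles, and XCKO mice were Xbp1ΔHep, with the deletion in hepatocytes. Each group had 3 libraries. The driver of the deletion, the exons removed and the mouse behind each library were not stated in the sources used here, and p-values therefore describe the spread among the 6 libraries only.

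The inner mitochondrial membrane of the hepatocyte carries the respiratory chain. Complex II takes electrons from succinate, complex III passes electrons from ubiquinol to cytochrome c, complex IV uses them to reduce oxygen, and complex V, the ATP synthase, makes ATP from the proton gradient that complexes III and IV help to build. Complex II is encoded wholly in the nucleus, while complexes III, IV and V also contain subunits encoded in mitochondrial DNA. The product of Xbp1 is a transcription factor that responds to unfolded proteins in the endoplasmic reticulum.

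Total counts were 23919355 to 26502456 in XCON and 26477489 to 27240079 in XCKO. Xbp1 itself was at 171.4, 294.0 and 319.0 CPM (counts over the library total scaled by TMM) in the XCON libraries against 59.0, 39.3 and 67.4 CPM in the XCKO libraries. It fell by 2.24 ± 0.29 (SE) on the log2 scale (adjusted p = 0.00837). Hepatocyte markers summed to 61600 to 84100 CPM in XCON and 85100 to 115000 CPM in XCKO, and 0 of the 8 passed the test. In these bulk libraries, fewer cells of a type and less RNA per cell cannot be told apart. Macrophage markers summed to 791 to 1560 CPM against 261 to 751 CPM, with 1 of 8 lower (Cd68), and stellate markers to 287 to 591 CPM against 117 to 294 CPM, with 2 of 8 lower (Pdgfrb and Lrat). Cholangiocyte markers summed to 251 to 583 CPM against 82.5 to 162 CPM and lymphocyte markers to 3.55 to 20.8 CPM against 2.21 to 7.05 CPM, with none of the 5 and 7 tested past the threshold. Endothelial markers summed to 490 to 523 CPM against 378 to 757 CPM, again with none of 8 past it. Erythroid markers ran from 42.3 to 70.0 CPM against 77.4 to 940 CPM, with 0 of 5 tested past the threshold. Adipocyte markers ran from 79.5 to 94.7 CPM against 124 to 341 CPM, and of 3 tested only Cfd rose. At the same threshold, 5.21% of all tested genes were higher and 4.05% lower. Muscle markers were near 0, at no more than 0.462 CPM in any library. The part of these cell types in the results below was not tested.

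Of the 51 genes, 43 had enough reads to be tested, and 32 of these (74.4%) were higher in XCKO and 0 lower at an adjusted p under 0.05. Across all 14873 tested genes, 5.21% were higher and 4.05% lower, 9.27% in all. The adjusted p-values come from the quasi-likelihood test of edgeR, adjusted by the Benjamini-Hochberg method over all tested genes. The median log2 fold change of the 43 genes was 0.83, with a range of 0.06 to 2.28, against a median of -0.05 over all tested genes. With TMM scaling, the lowest XCKO library lay above the highest XCON library in 42 of the 43, which held for 17.6% of all tested genes. Cox7a1, among these 42, reached the filter on low counts through XCKO alone. The separation depends on the scaling. With libraries scaled by their totals alone the groups of Sdhc overlapped, and separated genes were not counted under that scaling. All 10 genes of complex III and cytochrome c rose, as did 3 of 4 for complex II, 8 of 12 tested for complex IV and 11 of 17 tested for complex V. The 32 genes that rose lie on 17 chromosomes. The count was 10 with XCKO 3 left out, 13 without XCON 2, 16 without XCON 1 and 20 without XCKO 1. Calls over all genes fell in these fits too. They were 178 higher of 15475 tested, 383 of 15257, 288 of 15304 and 406 of 15436, in the same order, against 775 of 14873 with all libraries. With libraries scaled by their totals alone, 17 of the 43 genes were higher and 0 lower, with a median of 0.56, beside 326 higher and 2032 lower among all tested genes and a median over all of -0.31. That split of all calls was 775 higher and 603 lower with TMM.

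**Figure D1:**
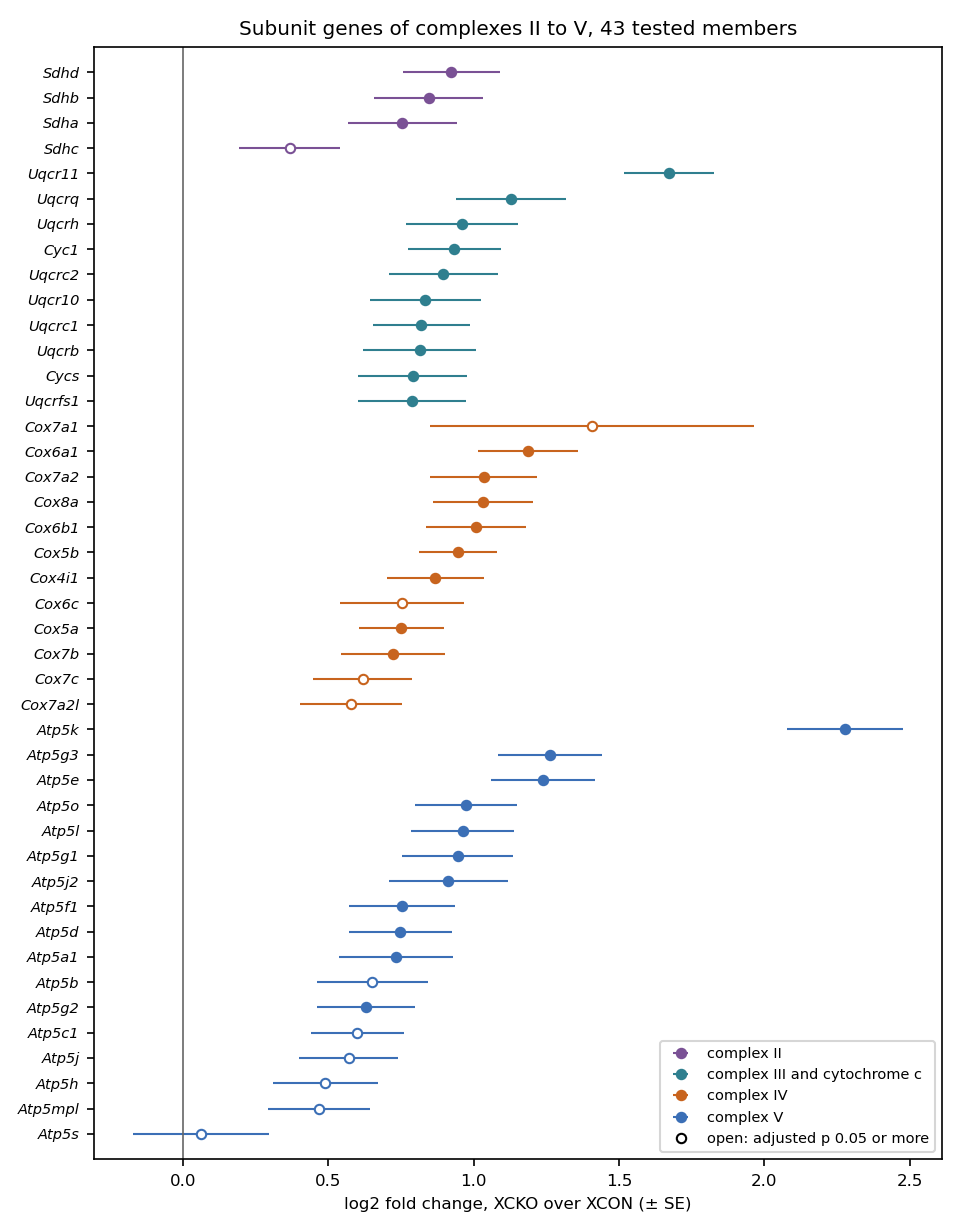
Log2 fold change of XCKO over XCON for the 43 tested genes, ordered by complex and size, with bars of 1 SE, filled points for an adjusted p under 0.05 and open points for the rest. With TMM scaling all 43 points lie above 0, from 0.06 for Atp5s (-0.21 with totals) to 2.28 for Atp5k, and most bars overlap those of their neighbours.

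The reads of all 51 genes together made up 0.497%, 0.446% and 0.559% of the counts in the XCON libraries, against 0.711%, 0.736% and 0.768% in the XCKO libraries. These shares are taken over each library's total counts, and so follow the scaling by totals alone. They also depend on what else fills a library, such as the 22.8% of mitochondrial transcripts in XCON 1. The groups did not overlap. Summed CPM went from 4566 ± 448 (SD, n = 3) to 8129 ± 804. By complex, the sums went from 500.3 ± 69.2 to 835 ± 66.5 CPM for complex II, from 795 ± 71.2 to 1542 ± 166 for complex III and cytochrome c, from 1196 ± 115 to 2246 ± 227 for complex IV and from 2074 ± 298 to 3504 ± 350 for complex V.

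The promoters of 3 genes with large changes and of the gene with the smallest are shown so that their letters can be set beside the values. They are RefSeq windows on GRCm38.p6 running from 250 bases before to 50 bases after the gene's start, written 5′ to 3′ on the gene's own strand. Capitals mark matches on either strand to 7-letter words of the kinds bound by ETS factors (CCGGAAG), NRF1 (CATGCGC), ERR receptors (AAGGTCA), YY1 (AAGATGG) and the factors of the unfolded protein response (TGACGTG), and overlapping matches run together. Atp5k, for the e subunit of ATP synthase (chr5:108434350-108434649, minus strand), holds ETS, NRF1 and ERR words.
Atp5k: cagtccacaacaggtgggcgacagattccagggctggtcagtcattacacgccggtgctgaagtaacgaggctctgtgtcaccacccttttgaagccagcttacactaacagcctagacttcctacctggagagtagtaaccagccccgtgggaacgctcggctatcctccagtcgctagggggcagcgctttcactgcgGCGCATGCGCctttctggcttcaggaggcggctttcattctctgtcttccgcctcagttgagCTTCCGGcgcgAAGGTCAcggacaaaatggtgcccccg
Uqcr11, for a small subunit of complex III (chr10:80406772-80407071, minus strand), holds an ETS word and an NRF1 word.
Uqcr11: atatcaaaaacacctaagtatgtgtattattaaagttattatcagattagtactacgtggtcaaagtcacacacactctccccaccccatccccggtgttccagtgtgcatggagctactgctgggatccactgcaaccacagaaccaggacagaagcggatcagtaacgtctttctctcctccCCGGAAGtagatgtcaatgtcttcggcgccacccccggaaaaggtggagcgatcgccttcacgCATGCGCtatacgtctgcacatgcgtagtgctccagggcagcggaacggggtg
Atp5g3, for the c subunit of ATP synthase (chr2:73911277-73911576, minus strand), holds an ERR word.
Atp5g3: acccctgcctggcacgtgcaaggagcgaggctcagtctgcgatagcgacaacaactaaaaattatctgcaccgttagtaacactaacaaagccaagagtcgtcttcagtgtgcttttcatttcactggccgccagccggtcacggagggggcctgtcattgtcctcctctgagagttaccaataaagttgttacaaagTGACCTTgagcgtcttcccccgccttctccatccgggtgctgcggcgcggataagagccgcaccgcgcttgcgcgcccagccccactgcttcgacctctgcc
Atp5s, for a coupling factor (chr12:69724695-69724994, plus strand), holds the unfolded protein response word and none of the others.
Atp5s: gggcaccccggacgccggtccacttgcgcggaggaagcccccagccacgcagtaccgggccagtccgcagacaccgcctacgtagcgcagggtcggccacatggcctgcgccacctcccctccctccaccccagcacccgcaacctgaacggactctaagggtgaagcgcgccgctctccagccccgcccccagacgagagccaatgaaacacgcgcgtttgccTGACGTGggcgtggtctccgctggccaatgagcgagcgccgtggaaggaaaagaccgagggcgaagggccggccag

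A promoter was matched for 37 of the 51 genes, 34 of them tested. The ETS word was found in 11 of the 34 (32.4%), against 17.5% of the promoters of all tested genes and 8.86% of all 32851 promoters. These 11 were Atp5e, Atp5h, Atp5k, Atp5l, Cox6a1, Cox6b1, Cox8a, Sdhb, Sdhd, Uqcr11 and Uqcrh. Their median log2 fold change was 1.01, and that of the 23 without the word was 0.76. The NRF1 word was found in 9 of the 34 (26.5%), against 6.75% of tested genes' promoters and 3.91% of all, with medians of 0.95 with the word and 0.79 without it. The ERR word was in 5 (14.7%, against 3.46% and 4.72%), namely Atp5e, Atp5g3, Atp5k, Atp5l and Sdhd, with medians of 1.24 and 0.79. The YY1 word was in 3 (8.82%, against 7.08% and 6.34%), and the unfolded protein response word only in Atp5s (2.94%, against 2.8% and 2.01%). A match is a run of letters in this window and not a measured binding site, and these shares and medians were not tested.

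Complex II oxidizes succinate and links the citric acid cycle to the chain. Sdhd, for a membrane anchor subunit, was at 73.6, 65.0 and 77.7 CPM in XCON and 120.5, 130.0 and 159.9 CPM in XCKO, a log2 fold change of 0.92 ± 0.17 (adjusted p = 0.0174). Sdhb, for the iron-sulfur subunit, went from 78.6, 67.9 and 94.0 CPM to 130.6, 130.5 and 171.1 CPM (0.85 ± 0.19, adjusted p = 0.0298). Both genes were highest in XCKO 3, and every XCKO library lay above every XCON library. Sdha, for the flavoprotein that carries the catalytic site, rose from 217.9, 264.2 and 314.4 CPM to 460.8, 424.6 and 459.1 CPM, which is 0.76 ± 0.19 on the log2 scale (adjusted p = 0.0399). Sdhc, for the other anchor subunit, was at 85.0, 68.5 and 93.8 CPM in XCON and 96.8, 101.0 and 121.3 CPM in XCKO. With TMM scaling its groups also did not overlap, but the gap between the nearest libraries was small, and its log2 fold change of 0.37 ± 0.17 did not pass (adjusted p = 0.193). Scaled by library totals alone its groups overlapped, at 2775 of 26502456 counts in XCON 3 and 2392 of 26999113 in XCKO 1. Its log2 fold change was then 0.095 (adjusted p = 0.74).

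The anchor pair could also be compared within a library, where scaling between libraries plays no part. The ratio of the authors' deposited FPKM, a level per length of gene, of Sdhc to Sdhd was 0.438, 0.399 and 0.457 in XCON and 0.304, 0.294 and 0.287 in XCKO. The groups did not overlap, and the ratio was lower in all 3 XCKO libraries. Sdhc has 3250 bases and Sdhd 1231, and across all tested genes the fold change fell with gene length. With a length correction in the fit, the log2 fold changes were 0.333 for Sdhc and 0.673 for Sdhd. The part of length in this ratio was not tested. The FPKM ratio of Sdha to Sdhb overlapped between the groups, at 1.5, 2.11 and 1.81 in XCON and 1.91, 1.77 and 1.46 in XCKO. These pairs were chosen after their values were seen. Without XCKO 3 none of the 4 complex II genes passed, and the number passing was 1 without XCON 1, XCON 2 or XCKO 1, 2 without XCKO 2 and 3 without XCON 3.

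Among the catalytic subunits of complex III, Cyc1, for cytochrome c1, was at 108.2, 114.3 and 118.7 CPM in XCON and 201.1, 204.6 and 246.3 CPM in XCKO, a log2 fold change of 0.93 ± 0.16 (adjusted p = 0.0157). Uqcrfs1, for the Rieske iron-sulfur protein, rose from 83.8, 67.1 and 97.4 CPM to 129.9, 135.2 and 164.3 CPM (0.79 ± 0.19, adjusted p = 0.0349). The XCON libraries were close together for Cyc1 and more spread for Uqcrfs1, and neither gene had overlapping groups. The core proteins Uqcrc1 and Uqcrc2, which face the matrix, changed by 0.82 ± 0.17 and 0.90 ± 0.19 (adjusted p = 0.0232 and 0.0250). Cycs, for the carrier cytochrome c, went from 42.9, 32.0 and 45.3 CPM to 65.0, 60.2 and 82.5 CPM (0.79 ± 0.19, adjusted p = 0.0352).

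The small accessory subunits of complex III covered a wider range. Uqcr11 was at 40.4, 36.7 and 37.7 CPM in XCON and 106.8, 121.2 and 137.6 CPM in XCKO, a 3.18-fold difference (log2 1.67 ± 0.15, adjusted p = 0.00199) that ranked 93 of 14873 by log2 fold change. Its 3 XCON libraries were nearly equal, and the lowest XCKO library was far above them. Uqcrq rose from 134.7, 95.6 and 123.3 CPM to 235.3, 245.3 and 292.5 CPM (1.13 ± 0.19, adjusted p = 0.0147). Uqcrh, for the hinge protein that binds cytochrome c1, rose by 0.96 ± 0.19 (adjusted p = 0.0231) and Uqcrb by 0.81 ± 0.19 (adjusted p = 0.0356). Uqcr10 rose by 0.83 ± 0.19 (adjusted p = 0.0327), and it lies on chromosome 11 (4701973 to 4704342, in the table's coordinates), 816 kb from Xbp1.

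Within each library the FPKM ratio of Uqcr11 to Cyc1, a pair again chosen after its values were seen, was 1.25, 1.08 and 1.07 in XCON and 1.78, 1.99 and 1.88 in XCKO. The Uqcr11 transcript was thus higher relative to Cyc1 in all 3 XCKO libraries, without overlap. Uqcr11 has 641 bases and Cyc1 2154, and with the length correction their log2 fold changes were 1.388 and 0.8. The part of length in this ratio was not tested either. Of the 10 genes, Uqcr11 and Cyc1 passed with any 1 library left out. The number passing fell to 2 without XCKO 3, 3 without XCON 2 and 4 without XCON 1, and was 6 without XCON 3 or XCKO 1 and 9 without XCKO 2.

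The 19 complex IV genes fell into ubiquitous forms, which serve the liver, forms of other tissues, a related factor and a processed pseudogene. All 10 ubiquitous forms were tested and 8 rose. Cox6a1, the liver form of subunit 6A, was at 241.7, 201.6 and 204.8 CPM in XCON and 500.8, 443.6 and 531.4 CPM in XCKO, a 2.28-fold difference (log2 1.19 ± 0.17, adjusted p = 0.0104). Cox5b went from 49.1, 46.9 and 50.8 CPM to 97.1, 91.8 and 94.0 CPM (0.95 ± 0.13, adjusted p = 0.00962). Relative to their mean, the XCKO libraries of Cox5b were the closest together of the tested complex IV genes, and both genes kept the groups well apart. Cox8a, the ubiquitous form of subunit 8, rose from 162.1, 122.1 and 132.6 CPM to 285.9, 267.9 and 298.2 CPM (1.03 ± 0.17, adjusted p = 0.0147).

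Cox7a2 rose by 1.03 ± 0.18 (adjusted p = 0.0166), Cox6b1 by 1.01 ± 0.17 (adjusted p = 0.0157) and Cox5a by 0.75 ± 0.15 (adjusted p = 0.0217). Cox4i1, for the subunit through which ATP inhibits the enzyme, rose from 259.4, 245.9 and 236.8 CPM to 435.6, 412.3 and 506.1 CPM (0.87 ± 0.17, adjusted p = 0.0205). Cox7b passed narrowly, at 0.72 ± 0.18 (adjusted p = 0.0407). Cox7c was at 182.2, 141.6 and 148.9 CPM in XCON and 249.0, 219.7 and 257.3 CPM in XCKO and did not pass (0.62 ± 0.17, adjusted p = 0.0540). Cox6c was at 142.3, 98.4 and 103.0 CPM against 169.8, 170.9 and 239.2 CPM and also missed the threshold (0.76 ± 0.21, adjusted p = 0.0575). Both genes had groups that did not overlap, with XCON 1 the highest XCON library. Exons of Cox6c overlap Vps13b on the opposite strand by 250 bases, and the use of strand in the counting was not stated.

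**Figure D2:**
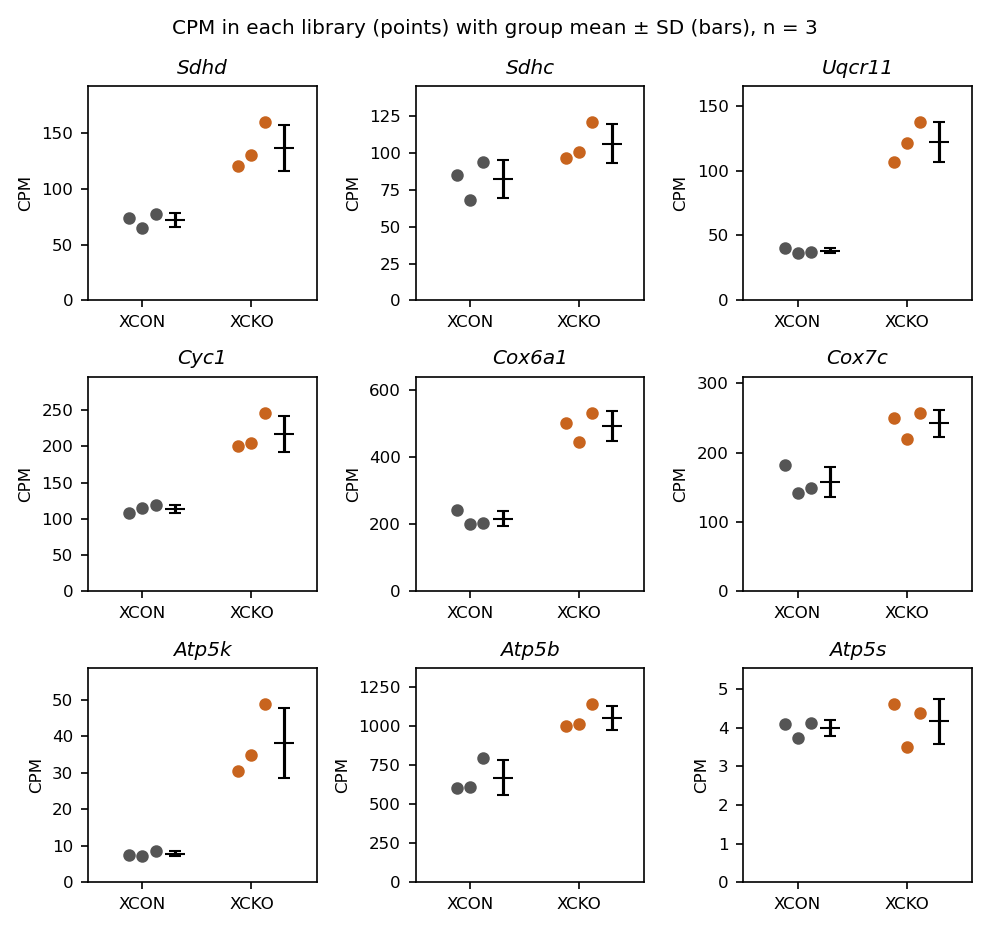
CPM in each library for 9 genes, XCON in grey and XCKO in orange, with the group mean and SD beside the points (n = 3, linear axes from 0). With TMM scaling the groups are separate in 8 panels, with a narrow gap for Sdhc (93.8 against 96.8 CPM), and overlap for Atp5s. Scaled by library totals alone, those of Sdhc overlap too.

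The forms of other tissues had few reads. Cox4i2, the lung form, had 2, 1 and 1 counts in XCON and 0 in XCKO, and the heart and muscle form Cox6a2 had 7, 10 and 0 counts in XCON and 0, 2 and 6 in XCKO. Cox8b, another muscle form, had at most 1 count in a library, and the testis form Cox6b2 at most 4. No read was counted for the testis forms Cox7b2 and Cox8c. The share of Cox6a2 in the FPKM of the subunit 6A pair reached 0.187% in XCON 2 and was lower in the other libraries, and the shares of Cox4i2, Cox6b2 and Cox8b were no higher than 0.122% of their own groups. Cox6c2, a processed pseudogene, had 1 to 16 counts.

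Cox7a1, the heart and muscle form of subunit 7A, had 20, 5 and 9 counts in XCON and 26, 32 and 24 in XCKO, so that it reached the filter on low counts through XCKO alone. Its log2 fold change of 1.41 ± 0.56 did not pass (adjusted p = 0.132). Cox7a2l, related to subunit 7A and known for holding complexes III and IV together in supercomplexes, went from 34.7, 35.8 and 39.0 CPM to 50.6, 44.9 and 68.1 CPM without passing (0.58 ± 0.18, adjusted p = 0.0700). Within the FPKM of the 3 subunit 7A genes, Cox7a2 held 64.5%, 59.0% and 61.6% in XCON and 67.9%, 69.5% and 68.4% in XCKO. The share of Cox7a2l was 33.9%, 40.6% and 37.8% against 30.7%, 28.8% and 30.6%. The shares of both genes separated the groups without overlap, and Cox7a1 held at most 1.71%. With 1 library left out, 4 of the 12 tested complex IV genes passed in every fit, and the number passing was 4 without XCKO 3, 5 without XCON 2, 7 without XCKO 2 and 6 in each of the others.

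In complex V the largest difference lay in the part embedded in the membrane. Atp5k, for the e subunit that takes part in joining ATP synthase into dimers, was at 7.58, 7.29 and 8.62 CPM in XCON and 30.6, 34.7 and 48.9 CPM in XCKO. This was a 4.85-fold difference (log2 2.28 ± 0.20, adjusted p = 0.00187), ranking 34 of 14873 by log2 fold change. The XCON libraries were nearly equal and XCKO 3 stood highest. Atp5l, for the g subunit that lies beside the e subunit, rose from 41.0, 35.6 and 38.6 CPM to 62.2, 69.6 and 92.6 CPM (0.96 ± 0.18, adjusted p = 0.0181), and Atp5j2, for the f subunit, rose by 0.91 ± 0.20 (adjusted p = 0.0303). Atp5mpl, for a small proteolipid, did not pass (0.47 ± 0.18, adjusted p = 0.117).

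The FPKM ratio of Atp5k to Atp5l was 1.93, 2.15 and 2.33 in XCON and 5.14, 5.22 and 5.52 in XCKO. The products of this pair, chosen after its values were seen, sit together in the enzyme. The ratio of their transcripts was higher in every XCKO library. Atp5k has 616 bases and Atp5l 6443, and with the length correction their log2 fold changes were 1.983 and 1.085. Per length, Atp5k went from 12.4 ± 1.34 to 61.8 ± 16.5 FPKM, which in XCON is below most other complex V genes. Usmg5, a membrane subunit of ATP synthase that the name rule does not take, was at 47.5, 34.2 and 43 CPM in XCON and 79.8, 71.3 and 110.2 CPM in XCKO (1.07 ± 0.20, adjusted p = 0.0205). Its groups did not overlap, but it did not pass without XCKO 3, XCON 2 or XCON 3 (adjusted p up to 0.058).

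The c subunit forms the ring that turns with proton flow, and 3 genes encode the same mature protein with different import sequences. Atp5g3 rose from 115.3, 90.8 and 128.7 CPM to 265.1, 256.0 and 282.9 CPM (1.26 ± 0.18, adjusted p = 0.00977). Atp5g1 rose from 54.5, 37.1 and 47.4 CPM to 76.1, 87.2 and 104.3 CPM (0.95 ± 0.19, adjusted p = 0.0231), and Atp5g2 just passed, from 46.4, 35.9 and 50.6 CPM to 65.7, 63.8 and 76.0 CPM (0.63 ± 0.17, adjusted p = 0.0498). All 3 were above XCON in every XCKO library, Atp5g3 by the most. Within the summed FPKM of the trio, Atp5g3 held 57.7%, 59.0% and 59.7% in XCON and 68.9%, 67.8% and 66.1% in XCKO. The share of Atp5g2 was 30.2%, 30.3% and 30.5% against 22.3%, 22.0% and 23.1%. These shares did not overlap between groups, while those of Atp5g1 did, at 9.76% to 12.1% and 8.79% to 10.8%.

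**Figure D3:**
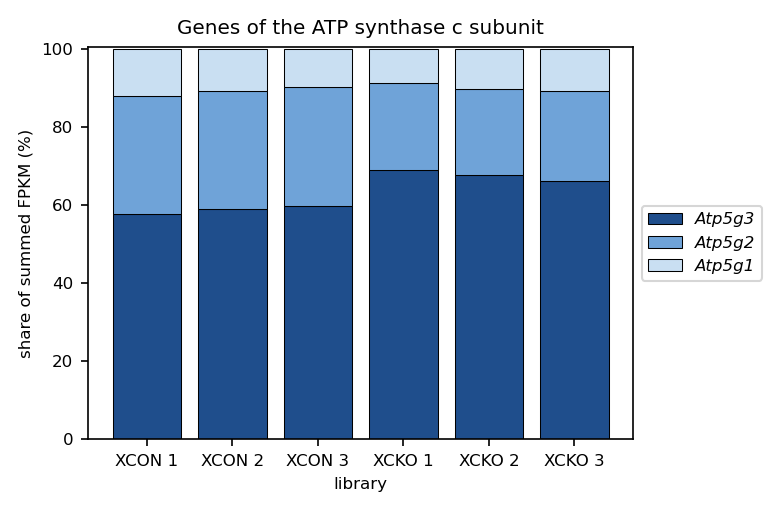
Share of each of the 3 c subunit genes in their summed FPKM, in percent, by library. Atp5g3 takes 57.7% to 59.7% of each XCON bar and 66.1% to 68.9% of each XCKO bar, and the share of Atp5g2 is smaller in all XCKO bars.

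The F1 part, which holds the catalytic sites, contained the transcripts with the highest CPM of complex V, and its 5 genes had log2 fold changes of 0.60 to 1.24. Atp5b, for the beta subunit, was at 605.3, 609.3 and 798.3 CPM in XCON and 1002, 1014 and 1145 CPM in XCKO, a log2 fold change of 0.65 ± 0.19 that did not pass (adjusted p = 0.0632). Atp5a1, for the alpha subunit, rose from 437.4, 450.9 and 607.4 CPM to 798.4, 785.1 and 903.9 CPM (0.73 ± 0.20, adjusted p = 0.0489). For both, XCON 3 was well above the other XCON libraries and the groups did not overlap. Their FPKM ratio, Atp5b to Atp5a1, was 1.02, 1.00 and 0.973 in XCON and 0.928, 0.956 and 0.937 in XCKO, a small difference in which all 3 XCKO libraries were below all 3 XCON libraries. This pair too was chosen after its values were seen. Atp5c1, for the gamma subunit of the rotating stalk, was at 118.1, 105.3 and 126.2 CPM against 164.6, 167.0 and 198.3 CPM and lay at the threshold (0.60 ± 0.16, adjusted p = 0.0502). Atp5e, for the small epsilon subunit of the same stalk, rose from 39.4, 30.8 and 39.4 CPM to 75.0, 80.5 and 103.3 CPM (1.24 ± 0.18, adjusted p = 0.0102), and Atp5d, for the delta subunit, rose by 0.75 ± 0.18 (adjusted p = 0.0353).

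In the peripheral stalk, which holds the head still, Atp5o, for the oligomycin sensitivity conferral protein, rose from 21.5, 17.6 and 24.5 CPM to 38.1, 37.8 and 49.0 CPM (0.97 ± 0.17, adjusted p = 0.0171). Its second row in the table overlaps its exons by 243 bases and had no read. Atp5f1, for the b subunit, rose by 0.75 ± 0.18 (adjusted p = 0.0376), and Atp5j and Atp5h did not pass, at 0.57 ± 0.17 and 0.49 ± 0.18 (adjusted p = 0.0659 and 0.112). Atp5j shares 397 exon bases with Gabpa on the other strand. Atp5s, for factor B, a coupling factor and not a subunit, was at 4.08, 3.74 and 4.12 CPM in XCON and 4.61, 3.49 and 4.37 CPM in XCKO. Its groups overlapped. Its log2 fold change of 0.06 ± 0.23 (adjusted p = 0.879) turned to -0.21 with libraries scaled by their totals. Atpif1, for the protein that inhibits ATP hydrolysis by the enzyme and not taken by the name rule, was at 7.81, 5.79 and 4.63 CPM in XCON and 3.76, 3.73 and 6.96 CPM in XCKO, also overlapping (-0.34 ± 0.32, adjusted p = 0.512). Atp5k, Atp5g3 and Atp5e passed with any 1 library left out, and the number of complex V genes passing was 4 without XCON 2 or XCKO 3, 5 without XCON 1, 7 without XCON 3 or XCKO 1 and 8 without XCKO 2.

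The order of levels per length was led by complex IV. In XCON, Cox6a1 was at 299.7 ± 30.4 FPKM, Cox8a at 248.4 ± 37.2, Cox4i1 at 155.4 ± 5.93, Atp5a1 at 155.2 ± 32.4, Atp5b at 154.5 ± 28.4 and Cox7c at 135.7 ± 18.6 (SD, n = 3). Cox6a1 and Cox8a differed by less than the sum of their SDs, and the next 3 did not differ beyond their spread. In XCKO, Cox6a1 was at 700.8 ± 76.3 FPKM, Cox8a at 520.9 ± 37.7, Cox4i1 at 291.2 ± 36.8, Atp5a1 at 264.4 ± 25.4, Atp5b at 248.6 ± 22.8 and Cox7c at 214.0 ± 21.3. The order of the first 6 in XCON was thus the same in XCKO. The FPKM ratio of Cox6a1 to Cox7c was 2.14, 2.29 and 2.22 in XCON and 3.24, 3.25 and 3.33 in XCKO, another pair chosen after its values were seen. Across the 43 tested genes Spearman's rho of the log2 fold change with the mean level was -0.03, as a description.

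Over these genes the XCKO libraries lay above the XCON libraries, and the libraries within a group also differed. In the 42 genes above 3 CPM in every library, the median log2 distance from the XCON mean was 0.08, -0.18 and 0.11 for XCON 1 to 3, against 0.73, 0.72 and 1.05 for XCKO 1 to 3. XCKO 3 was the highest XCKO library in 38 of the 42 and XCON 2 the lowest XCON library in 34. With libraries scaled by their totals alone, the 3 XCKO medians were 0.47, 0.55 and 0.68. XCKO 3 also had the largest sum of hepatocyte markers (115000 CPM) and of erythroid markers (940 CPM) and the smallest TMM factor (0.850), and the part of these in its higher values was not tested. With XCKO 3 left out, 10 of the 43 genes passed, against 26 without XCKO 2 and 20 without XCKO 1. Over all tested genes, 178, 523 and 406 were higher in these 3 fits, against 775 with all libraries. Without XCON 1, XCON 2 and XCON 3, 16, 13 and 22 of the 43 passed, beside 288, 383 and 356 higher over all tested genes. The 9 genes that passed in all 6 of these fits were Atp5e, Atp5g3, Atp5k, Cox5b, Cox6a1, Cox6b1, Cox7a2, Cyc1 and Uqcr11.

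**Figure D4:**
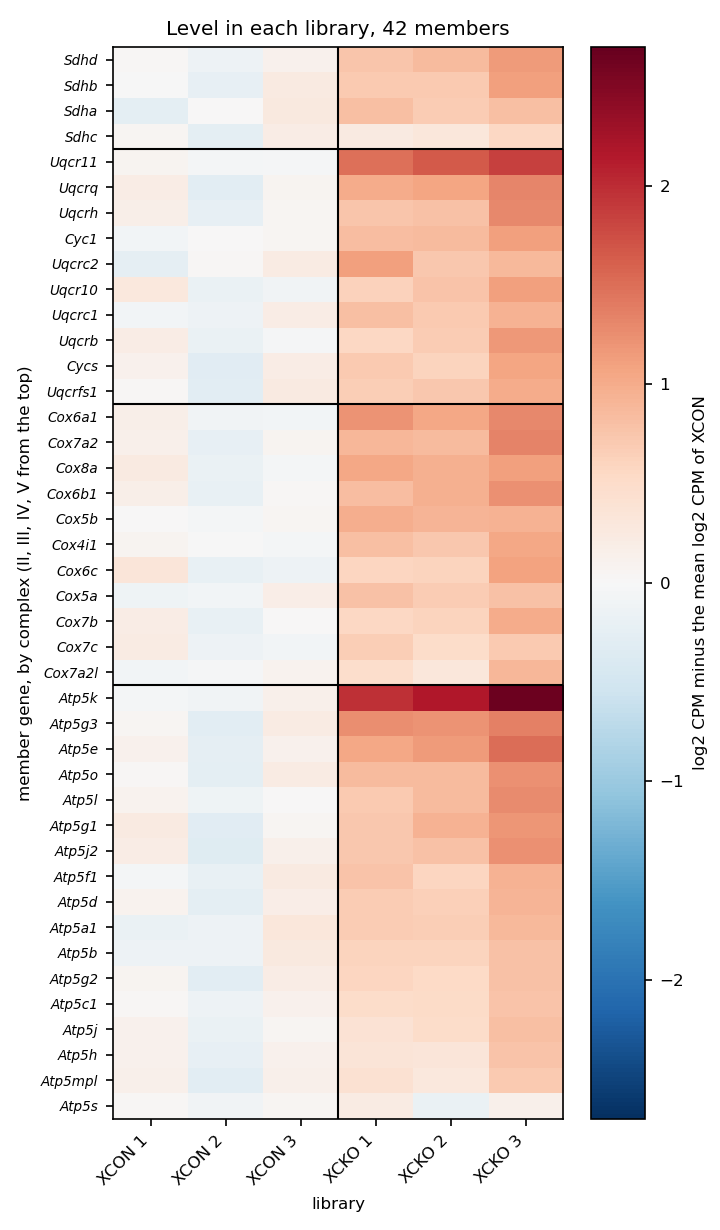
Log2 CPM of 42 genes in each library minus the mean of the XCON libraries, in rows by complex (II, III, IV and V from the top). The XCKO columns are above 0 (red) in nearly every row, and XCKO 3 is the deepest column, with a median of 1.05 against 0.73 and 0.72.

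In the authors' deposited table of fold changes, 38 of the 48 genes with an adjusted p were higher and 0 lower at 0.05, against 5.51% of its 24709 genes higher. The authors' deposited table listed Atp5k at a log2 fold change of 2.32 (adjusted p = 6.16e-18) and Uqcr11 at 1.71 (adjusted p = 2.3e-17). Genes that did not pass here were called there, such as Atp5b at 0.69 (adjusted p = 0.00587 in the authors' deposited table), while Sdhc was not called in either (0.40, adjusted p = 0.179 in the authors' deposited table).

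Subunit genes are short and abundant, and across all tested genes the fold change fell with gene length. In the shortest decile of tested genes, 163 of 1492 were higher and 26 lower, with a median log2 fold change of 0.21, and in the longest decile 13 of 1488 were higher and 109 lower, with a median of -0.25. Among other genes with a mean of at least 30 CPM, 10.7% were higher, rising to 14.8% for those no longer than the longest tested member (6443 bases) and to 30.4% of the 250 with 1500 bases or fewer, whose median was 0.51. The 15 members in that last class had 11 higher (73.3%) and a median of 0.83. The 25 longer members of at least 30 CPM had 20 higher (80.0%) and a median of 0.82, beside 13.2% and 0.23 for 2454 other genes of that level and length. The limits of 30 CPM and 1500 bases were chosen after the data were seen. Across the 43 genes, Spearman's rho of the log2 fold change with length was -0.30, as a description. With a length correction in the fit, 25 of the 43 passed with a median of 0.73, beside 645 higher and 435 lower of all 14873 genes and a median over all of -0.02.

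**Figure D5:**
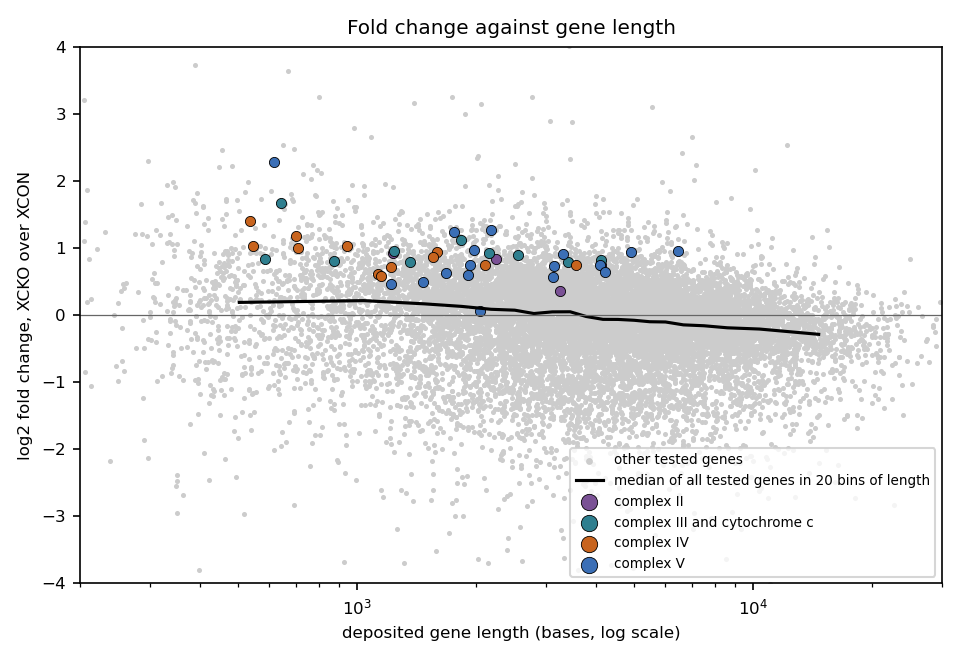
Log2 fold change of XCKO over XCON against deposited gene length in bases (log axis), with the 43 genes in colour by complex, other tested genes in grey and a line for the median of all tested genes in 20 bins of length. Another 95 genes lie outside the axes. The line falls from above 0 for short genes to below 0 for long genes, and 42 of the 43 coloured points lie above it.

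Other genes of the pathway were read from lists. Of 40 tested complex I subunit genes, 30 were higher and 1 lower (Ndufs6b, a close copy of Ndufs6 whose reads could be shared with it), with a median of 0.84. The smallest p-values were those of Ndufb6 (1.66 ± 0.15), Ndufa2 (1.73 ± 0.20), Ndufb8 (1.23 ± 0.14) and Ndufs6 (1.37 ± 0.16), all accessory subunits, with adjusted p-values of 0.00199, 0.00593, 0.00593 and 0.00706. Of 31 tested assembly factors of complexes II to V, 8 were higher and 0 lower, with a median of 0.52, beside 5.21% higher and a median of -0.05 over all tested genes and 14.8% higher and a median of 0.24 over the 2704 other genes of at least 30 CPM and up to 6443 bases. Among them were Cox14 (0.94 ± 0.15, adjusted p = 0.0121) and Coa3 (0.84 ± 0.15, adjusted p = 0.0166), which act early in making the Cox1 protein, and Coa6 (1.35 ± 0.24, adjusted p = 0.0166), which serves copper delivery to complex IV. Taco1, which activates translation of Cox1, also rose (0.96 ± 0.19, adjusted p = 0.0215). Cox14 passed with any 1 library left out, while Coa3 did not pass without XCKO 3, Coa6 without XCON 1, and Taco1 without XCKO 3, XCON 1 or XCON 2. Ndufs6b passed in none of the 6 fits, and the 4 complex I genes with the smallest p passed in all.

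The subunits of complexes III to V encoded in mitochondrial DNA numbered 6, with a median log2 fold change of 1.47. Of these, mt-Atp8 rose (3.21 ± 0.42, adjusted p = 0.00837), 1 gene of 6 beside 5.21% higher over all tested genes. The other 5 did not pass and had overlapping groups. These were mt-Atp6 at 1.81 ± 0.90, mt-Co3 at 1.80 ± 0.77, mt-Co2 at 1.15 ± 0.99, mt-Cytb at 0.04 ± 0.40 and mt-Co1 at -0.24 ± 0.41. Their summed level was 125000, 52300 and 48800 CPM for XCON 1 to 3, against 61000, 53500 and 94800 CPM for XCKO 1 to 3, with XCON 1 highest. All transcripts from mitochondrial DNA took 22.8% of the counts in XCON 1 and 9.79%, 9.30%, 9.59%, 8.99% and 13.1% in the others. With those genes left out of the library totals, 33 of the 43 nuclear genes passed.

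Of 13 tested regulators of mitochondrial genes, only Esrra, for the receptor ERRα, rose (1.15 ± 0.22, adjusted p = 0.0212), and the list median was 0.12. Across all tested genes 5.21% were higher, and 1 call in 13 is near that share. Nrf1 (-0.01 ± 0.17, adjusted p = 0.984), Gabpa, an ETS factor (0.12 ± 0.14, adjusted p = 0.603), and Ppargc1a, for the coactivator PGC-1α (-0.26 ± 0.44, adjusted p = 0.733), did not pass. Beside 5.21% of all tested genes, 8 of 20 tested genes for other mitochondrial proteins were higher and 0 lower, with a median of 0.52. They included Etfb, for an electron carrier of fatty acid oxidation (1.38 ± 0.18, adjusted p = 0.00837), Timm23 and Tomm40, for protein import channels (0.86 ± 0.14 and 0.72 ± 0.15, adjusted p = 0.0136 and 0.0245), and Phb2, for a prohibitin (0.79 ± 0.14, adjusted p = 0.0174). Ndufa4, named for complex I and now known as a complex IV subunit, is in this list and, by its name, in the complex I list, and so is counted in both (0.84 ± 0.20, adjusted p = 0.0384). With 1 library left out it passed only without XCKO 2. Etfb and Timm23 passed in all 6 such fits, while Phb2 did not pass without XCKO 3 or XCON 1, and Tomm40 and Esrra did not pass without XCKO 3, XCON 1 or XCON 3.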

How the data were processed

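Per the labels' protocols, Trizol was used for extraction and a NEBNext Ultra RNA kit for the libraries. Bowtie 0.12.2, mm8 and mm10 appear in the submitters' processing notes with no role, and neither the read counter nor any use of strand was given in the sources used here. The authors deposited raw read counts, FPKM, group means (a signal on the scale of scaled counts), log2 fold changes, p-values and gene lengths for 54532 Ensembl genes, 27928 of them without a read. The deposited p-values and fold changes cover 24709 genes, from a tool that was not stated. Coordinates were those of GENCODE M21 (GRCm38) for 98.3% of identifiers found there and for 49 of the 51 members.

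The members and the lists were chosen with earlier results of these data known. Genes passing edgeR's filterByExpr (minimum count 10) were scaled by TMM (factors 1.086 to 1.117 in XCON and 0.850 to 0.974 in XCKO) and tested with the robust quasi-likelihood F test of edgeR 4.0.16 (R 4.3.3) on group, two-sided. P-values were adjusted by the Benjamini-Hochberg method over 14873 genes and read at 0.05, and every adjusted p is from this test where no other source is named. An SE is the absolute log2 fold change over the square root of F, and CPM are counts over TMM-scaled totals. The biological coefficient of variation was 25.8%, and counts of a few reads limit what can be said of rare members. Members named whatever their values were 18 subunit genes and the paralog groups, joined by up to 6 per complex with the smallest p past the threshold and up to 4 per pathway list. Pseudogenes with -ps names were left out (7, with 66 reads in all). Alternatives were library totals, size factors, no count filter, a filter of 5 CPM, a length correction, DESeq2 1.42.0, limma-voom (limma 3.58.1), mitochondrial genes left out, a replicate block and each library left out. The scripts were tested on simulated data.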

Additional observations from a re-analysis of the deposited data

How the results depend on the processing

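No gene of the 43 tested was called lower under any alternative tried. The median log2 fold change was 0.83, from 0.76 to 0.94 with 1 library left out, and 0.56 with library totals alone. That scaling moved the median of all genes by -0.26, to -0.31, so that the members lay 0.87 above it, against 0.88 with TMM. It called 2358 genes, 326 higher and 2032 lower (13.8% higher, against 56.2% with TMM), with 17 members higher, 1 in complex II, 4 in complex III and 6 in complex V. All genes called numbered 1378, and 2653 with DESeq2, 2160 with no filter on low counts and 322 with the replicate block. Same-numbered libraries deviated with correlations of 0.055, 0.076 and -0.168, and differently numbered ones with -0.158 to 0.106. The labels do not say whether equal numbers share a litter, day or batch. With so few libraries these correlations cannot decide it. With the replicate block 13 members were called, 1, 3, 5 and 4 in complexes II to V, and the median was 0.84. With each library left out in turn, 309 to 810 genes and 10 to 26 members were called, with 0 to 3 in complex II, 2 to 9 in complex III, 4 to 7 in complex IV and 4 to 8 in complex V. The members called were 30 with size factors, 33 without mitochondrial genes, 38 with no filter, 31 with a filter of 5 CPM, 25 with the length correction, 38 with DESeq2 and 34 with voom. Atp5s, at 0.06, turned to -0.21 with library totals (adjusted p = 0.57), -0.079 with the length correction (adjusted p = 0.85) and -0.01 without XCKO 1 (adjusted p = 0.99), and ranged up to 0.224 with 1 library left out. The cause of these shifts was not tested. Of the values of single genes, 172 kept direction and side with 1 library left out and 85 lost the call. Under the other settings 324 kept both, 44 lost the call and 15 gained it. Depth limits the forms of other tissues, where a difference was not detectable at these counts.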
